A study of Mus musculus with 11 samples.

Results

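The antioxidant, glutathione and Nrf2 target genes described here are 45 mouse genes chosen by name, among them the enzymes that make and use glutathione, the thioredoxin and peroxiredoxin systems, superoxide dismutases, catalase, the NADPH-supplying steps of the pentose phosphate pathway, metallothioneins, and the transcription factors *Nfe2l1* and *Nfe2l2* with the *Nfe2l2* inhibitor *Keap1*. Earlier results of these data were known when the genes were chosen, so the shares given below are not independent of the data. The genes were represented by 63 of the 41174 probes on the array and by 45 of its 17016 gene symbols. Of these, 62 probes of 44 genes were bright enough to be tested, which required each array of some group to read well above background, and the 44 genes did so on all 11 arrays. The remaining member, *Gpx3*, which encodes the secreted glutathione peroxidase of plasma, was above background on no array and was not tested.

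The study asked what reduced *Mamld1* expression does to MLTC-1, a mouse Leydig tumor cell line (MLTCs) that makes steroids. All cells received an RNA at 20 nM for 48 h. That RNA was the non-targeting control 4611G in 4 samples (control), siRNA1 against *Mamld1* in 4 samples, and siRNA2 against *Mamld1* in 3 samples. Each sample gave 300 ng of total RNA for labeling with a single dye and 1 array. All groups share the cell line and the transfection reagent, and the study's methods add human chorionic gonadotropin to the cells shortly before harvest, which the sample labels do not mention. Neither source says whether samples of a group were separate cultures, so the p-values measure only the spread between these samples, which may be technical.

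Nrf2, the product of *Nfe2l2*, is held in the cytoplasm by *Keap1*, which passes it to a ubiquitin ligase for degradation. Oxidants and electrophiles modify *Keap1*, Nrf2 then accumulates, and with small Maf partners it binds antioxidant response elements near genes of glutathione synthesis, quinone reduction, conjugation and NADPH supply. Leydig cells make steroids with mitochondrial and microsomal cytochrome P450 enzymes that draw on NADPH and leak reactive oxygen, and antioxidant enzymes are known to protect this activity.

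The core letters of the antioxidant response element, TGACNNNGC, were looked for on both strands of the RefSeq promoter windows (GRCm38.p6, 300 bases each, of which 250 lie before the start site). Windows were at hand for 39 of the 45 members, but not for *Gclc*, *Gsr*, *Gsta4*, *Hmox1*, *Prdx6*, and *Sod3*, which were not searched. The letters occurred in a window of 12 of the 39 members (30.8%) and in 14% of all genes with a window. Of the 9 members with a window that were lower with siRNA2, 5 had a match (*Gclm*, *Gsta3*, *Mgst1*, *Pgd*, and *Srxn1*), and of the 8 called with siRNA1, 5 had one (*Gsta3*, *Mgst1*, *Pgd*, *Srxn1*, and *Txnrd1*). Those of *Pgd* and *Srxn1* lie at positions 4 and 29 after a start site. The 4 members *Gsta3*, *Gclm*, *Mgst1*, and *Txnrd1* had a match before a start site with enough sequence around it, and are shown because each was also called with an siRNA, 5′ to 3′ on the gene's strand, with the match in capitals. The *Gsta3* stretch is chr1:21240419-21240517, plus strand, with its match starting 121 bases before the start site. The *Gclm* stretch is chr3:122245378-122245476, plus strand, and its match, on the opposite strand, starts 134 bases before the start site. The *Mgst1* stretch is chr6:138140426-138140524, plus strand, with a match on the opposite strand that starts 56 bases before the start site. The *Txnrd1* stretch is chr10:82859069-82859167, plus strand, with a match on the opposite strand that starts 92 bases before a start site. Windows at other start sites of *Txnrd1* had no such match.
Gsta3: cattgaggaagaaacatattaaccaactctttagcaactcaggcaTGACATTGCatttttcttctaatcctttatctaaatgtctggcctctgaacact
Gclm: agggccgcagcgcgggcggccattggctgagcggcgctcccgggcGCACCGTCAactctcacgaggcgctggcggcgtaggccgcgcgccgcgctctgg
Mgst1: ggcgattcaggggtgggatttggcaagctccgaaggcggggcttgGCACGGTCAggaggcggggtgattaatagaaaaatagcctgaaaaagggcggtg
Txnrd1: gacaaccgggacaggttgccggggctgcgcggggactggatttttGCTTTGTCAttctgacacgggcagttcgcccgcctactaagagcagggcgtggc
These letters are a description of the windows and show no binding. The letters TGCNCNC, a looser pattern than the metal response element core, occurred in a window of 20 of the 39 members (51.3%) and of 53.6% of all genes.

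Each array lay on 1 of 3 slides, and every slide held all 3 groups. The 75th percentile of the signal was 469.7 to 582 on the control arrays, 601 to 774 on the siRNA1 arrays, and 488 to 579 on the siRNA2 arrays, so the siRNA1 arrays were the brightest before scaling. *Mamld1* measured 85.2% to 119% of the control mean on the control arrays, 44.1% to 77.0% with siRNA1, and 45.3% to 68.6% with siRNA2, without overlap (limma adjusted p = 0.00571 and 0.0309), log2 changes of -0.93 and -0.77 that turned to 0.65 and 0.44 after normexp background correction. The siRNA2 call was lost without control replicate 3 (adjusted p = 0.0792), control replicate 4 (0.0746), siRNA2 replicate 1 (0.117) or siRNA2 replicate 3 (0.0501) in limma. All 8 Leydig cell markers were well above background on all arrays, and 0 of 3 macrophage markers and 0 of 2 germ cell markers were. Of the Leydig cell markers, *Cyp17a1* and *Lhcgr* fell with siRNA1, with changes of -0.92 and -0.63 (limma adjusted p = 0.000216 and 0.00285), and *Cyp17a1* fell with siRNA2, with a change of -0.48 (0.0237). The germ cell marker *Ddx4*, well above background on 4 control, 3 siRNA2, and 1 of 4 siRNA1 arrays, fell with siRNA1, with a change of -1.72 (limma adjusted p = 0.000197). The 4 Sertoli cell markers summed to 318% to 356% of the array's 75th percentile in control, 273% to 346% with siRNA1, and 466% to 546% with siRNA2, with the defining marker *Sox9* above background on no array. Of the other 3, *Dhh* alone was called with siRNA2, at 0.72 (limma adjusted p = 0.00103), while *Amh* read 0.03 and *Rhox5* -0.33, and *Rhox5* fell with siRNA1, with a change of -0.58 (0.00767). The 2 endothelial cell markers summed to 63.1% to 69.6%, 126% to 175%, and 110.2% to 134%, with *Pecam1* above background on no control array, and both probes of *Cdh5* rose with each siRNA, by 0.94 and 1.22 with siRNA1 and by 0.84 each with siRNA2. The part of these shifts in the results below was not tested.

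Levels are given for the brightest tested probe of a gene as a percentage of their geometric mean on the 4 control arrays, after each array was scaled to its 75th percentile. A change is given on the log2 scale with its standard error, and a gene is called, or said to have risen or fallen, where limma's p, adjusted over all 24250 tested probes, was 0.05 or less. Where the arrays of a pair of groups did not overlap, an exact permutation test (two-sided, difference in means) gave p = 0.0286, the smallest value that these numbers of arrays allow, or, for some comparisons with the 3 siRNA2 arrays, p = 0.0571. With siRNA1, 11 of the 44 members were called (25% against 29.3% of all 11818 tested genes), of which 5 rose (11.4% against 10.6%) and 6 fell (13.6% against 18.7%). With siRNA2, 12 were called (27.3% against 20.2%), of which 2 rose (4.55% against 8.02%) and 10 fell (22.7% against 12.2%). At a fold of at least 2, siRNA1 left 2 members (4.55% against 3.05%), *Gsr* as higher (2.27% against 0.829%) and *Mgst1* as lower (2.27% against 2.23%). At that fold siRNA2 left 4 members (9.09% against 2.42%), and *Cat*, *Gsta3*, *Gsta4*, and *Pgd* were all lower (1.78% of all genes). The arrays of siRNA1 and control did not overlap for 6 members that were higher (13.6% against 11.7%) and 6 that were lower (13.6% against 20.1%), and those of siRNA2 and control for 2 that were higher (4.55% against 13%) and 12 that were lower (27.3% against 18%). The median log2 change over the members was -0.06 with siRNA1 and -0.09 with siRNA2, against -0.08 and -0.02 over all tested genes. Fewer cells of a kind and less RNA per cell cannot be told apart in these bulk samples. After normexp background correction, *Mgst1* alone was called with siRNA1 and *Gsta3* and *Gsta4* with siRNA2, whereas normexp with extreme local backgrounds replaced, a setting added once the data had been seen, gave 10 and 13 calls. Scaling by the median left 4 members called with siRNA1, 3 higher and 1 lower, with *Gsta3*, *Gsta4*, *Nfe2l1*, *Nqo1*, *Pgd*, *Srxn1*, and *Txnrd1* losing their calls (limma adjusted p = 0.0617 to 0.185). Quantile normalization gave 11 calls with siRNA1, 8 higher and 3 lower, of which 8 were among the 11 above, and 7 were called without the filter on dim probes. With slide as a block, 15 members were called with siRNA1, 13 with siRNA2, and 20 between the siRNAs. The shares of all tested genes called under these alternatives are not given here. These counts therefore cannot be read as particular to the members. Of the 44 members, 31 had 1 tested probe and 13 had more. Probes of related family members can share signal, and probe sequences were not used here.

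**Figure D1:**
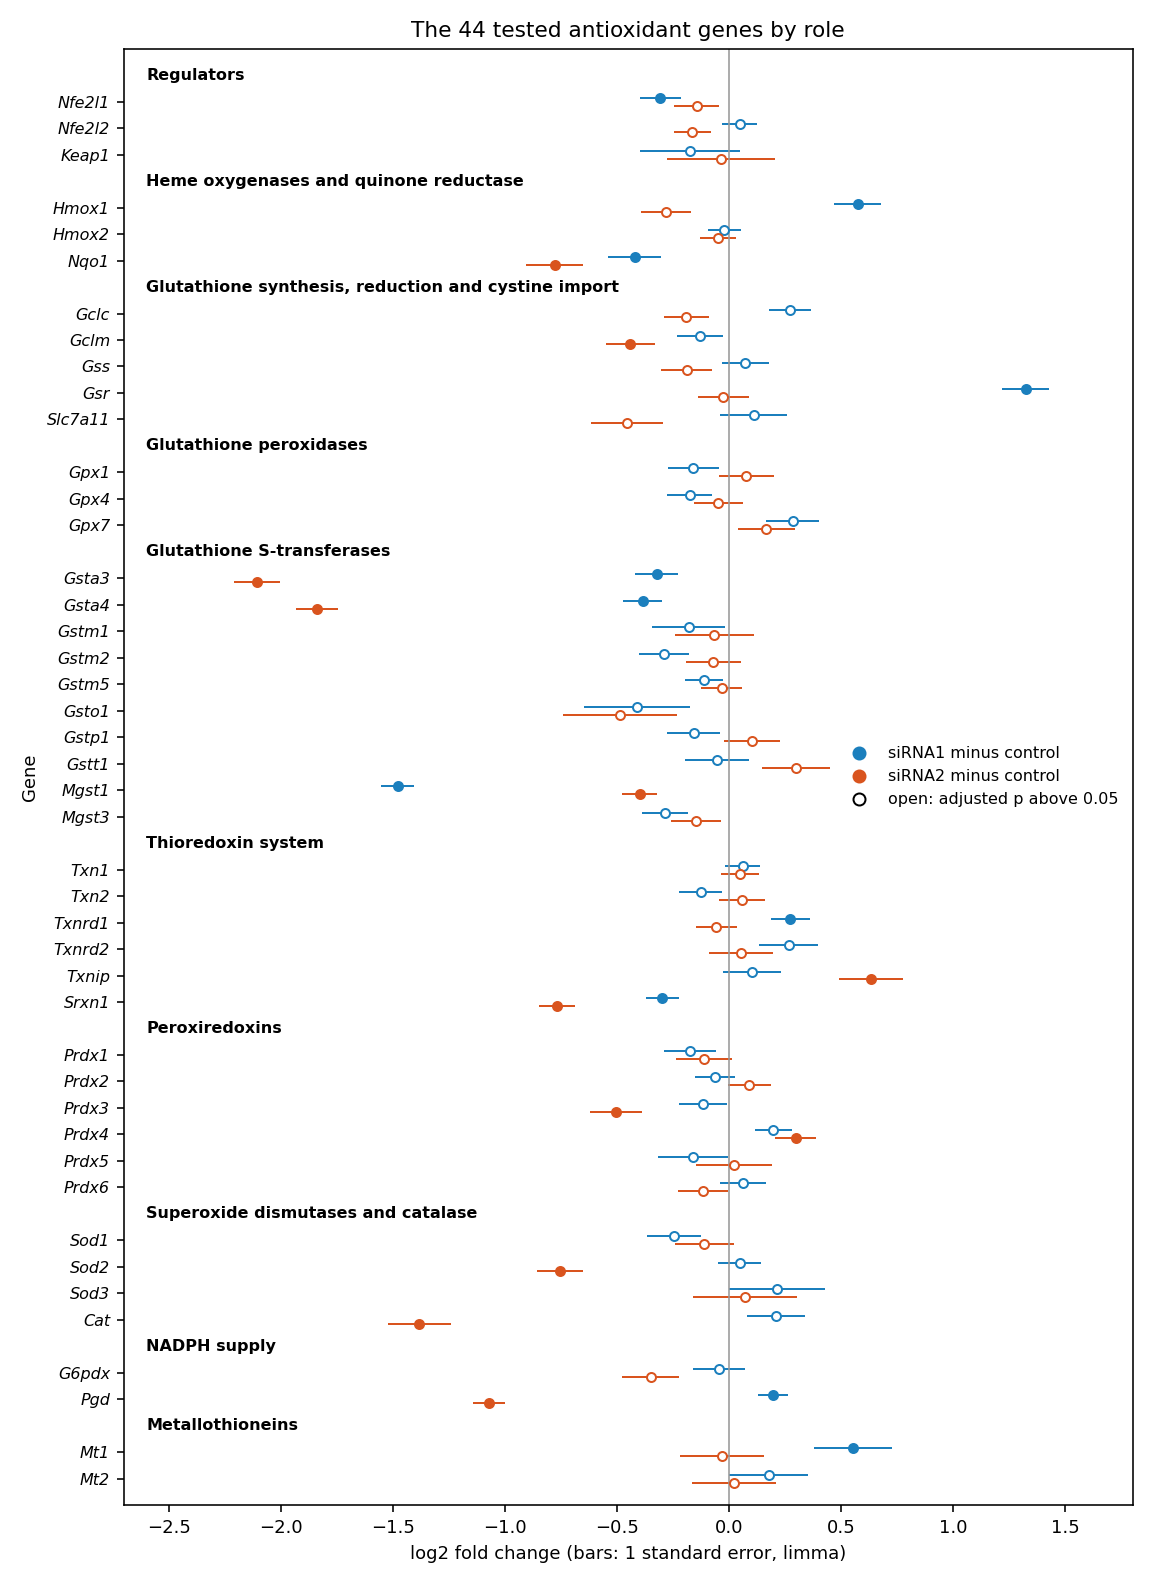
Log2 fold change against control (horizontal axis) of each of the 44 tested members (vertical axis, grouped by role) with siRNA1 and with siRNA2. Points are limma estimates with 1 standard error, filled at an adjusted p of 0.05 or less. *Gsta3*, *Gsta4*, *Cat*, and *Pgd* lie at -1.07 or below with siRNA2, and *Gsr* at 1.32 and *Mgst1* at -1.48 with siRNA1.

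**Figure D2:**
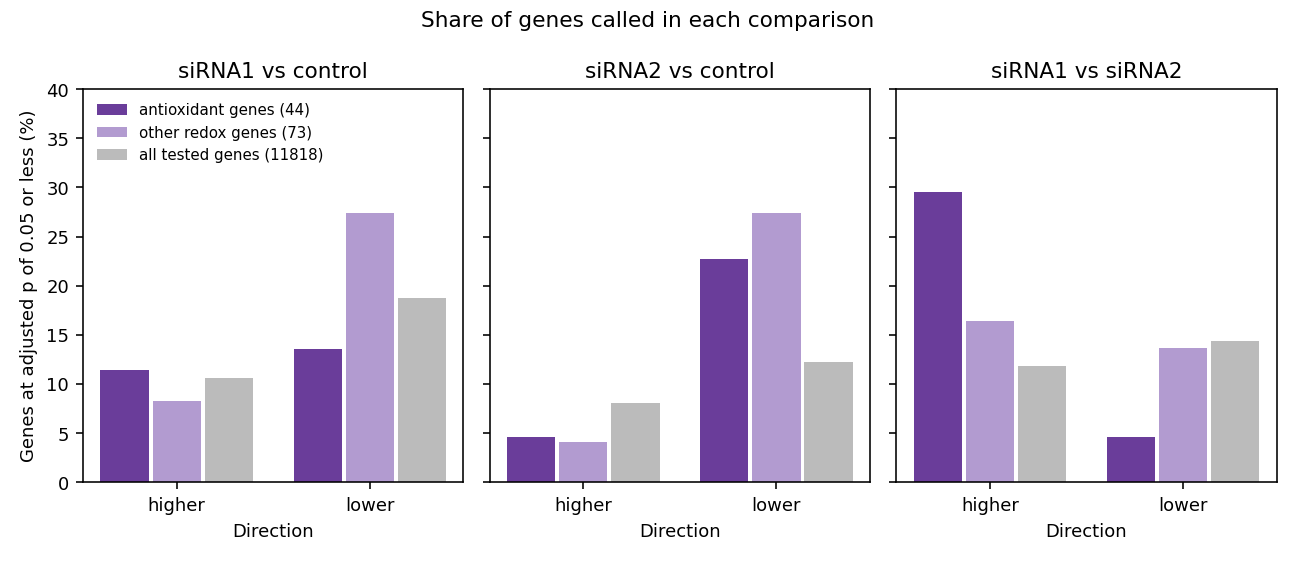
Share of genes called higher or lower (vertical axis, percent) in each of 3 comparisons, for the 44 antioxidant genes, 73 other redox genes, and all 11818 tested genes. Bars start at 0. The members stand at 22.7% lower with siRNA2 against 12.2% of all genes, and at 29.5% higher in siRNA1 against siRNA2 compared with 11.8%.

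Among the 3 regulators, *Nfe2l1* fell with siRNA1. *Nfe2l1*, which encodes Nrf1, a relative of Nrf2 that also controls proteasome genes, measured 97.5%, 105%, 94.1%, and 104% on the control arrays, 70.1%, 79.7%, 81.7%, and 93.7% with siRNA1, and 88.9%, 88.1%, and 94.5% with siRNA2. The siRNA1 arrays all lay below the control arrays, the highest of them within 1 point of the lowest control array. It fell by 0.31 ± 0.09 with siRNA1 (limma adjusted p = 0.0318) and its change with siRNA2 was -0.14 ± 0.10 (adjusted p = 0.39). The siRNA1 call was lost in limma without control replicate 1, 2 or 4 or siRNA1 replicate 1, 2 or 3, with adjusted p = 0.0539 to 0.082, and also under quantile normalization (0.0701) and scaling by the median (0.185).

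*Nfe2l2* itself measured 105%, 93.4%, 98.6%, and 104% in control, 99.4%, 96.0%, 106%, and 113% with siRNA1, and 89.8%, 87.3%, and 90.7% with siRNA2. On this brightest probe, all siRNA2 arrays lay below all control arrays, by a small margin. The change was 0.05 ± 0.08 with siRNA1 (limma adjusted p = 0.701, 95% interval -0.12 to 0.22) and -0.16 ± 0.08 with siRNA2 (adjusted p = 0.22, interval -0.35 to 0.02), and its other probe read 0.10 and -0.13. On that other probe siRNA2 replicate 1, at 102%, lay within the control range of 96.9% to 104%. *Keap1* spread widely, from 71.1% to 118% in control, 68.4% to 111% with siRNA1, and 68.8% to 122% with siRNA2. Its groups overlapped throughout, and its change was -0.17 ± 0.22 and -0.04 ± 0.24 (limma adjusted p = 0.614 and 0.951).

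The glutathione S-transferases, which couple glutathione to electrophiles, held the largest decreases of the list. Of the 10 tested, *Gsta3*, *Gsta4*, and *Mgst1* fell with each siRNA. *Gsta3*, an alpha-class transferase, measured 105%, 99.4%, 91.4%, and 105% in control, 82.6%, 78.0%, 71.8%, and 88.3% with siRNA1, and 25.8%, 20.9%, and 23.2% with siRNA2. The 3 groups did not overlap, and siRNA2 lay far below both others. *Gsta3* fell by 2.11 ± 0.10 with siRNA2 (limma adjusted p = 6.65e-07) and by 0.32 ± 0.10 with siRNA1 (adjusted p = 0.0278), and its other probe gave -2.20 and -0.35. Within slides, the siRNA2 change was -1.99, -2.13, and -2.17, and the siRNA1 change was -0.31, -0.29, and -0.24. The siRNA1 call of *Gsta3* was lost in limma without control replicate 1, 2 or 4 or siRNA1 replicate 2 or 3 (adjusted p = 0.0515 to 0.0865) and under quantile normalization (0.0651), scaling by the median (0.153), and without the filter on dim probes (0.06), and the siRNA2 call was kept under all 25 alternatives.

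*Gsta4*, the alpha-class enzyme with a preference for aldehydes from oxidized lipids, followed the same order of groups. It measured 101%, 91.9%, 104%, and 104% in control, 77.5%, 75.1%, 71.5%, and 82.2% with siRNA1, and 30.8%, 25.2%, and 28.2% with siRNA2, without overlap between any groups. It fell by 1.84 ± 0.09 with siRNA2 (limma adjusted p = 9.32e-07) and by 0.39 ± 0.09 with siRNA1 (adjusted p = 0.00696), a call lost with scaling by the median (0.0617). *Mgst1*, a membrane-bound transferase of the endoplasmic reticulum and mitochondria, showed the opposite order. It measured 100.2%, 97.8%, 96.1%, and 106% in control, 37.4%, 37.9%, 35.4%, and 33.0% with siRNA1, and 76.2%, 74.5%, and 76.8% with siRNA2, again with 3 groups that did not overlap and with siRNA1 as the lowest. *Mgst1* fell by 1.48 ± 0.07 with siRNA1 (limma adjusted p = 4.54e-07) and by 0.40 ± 0.08 with siRNA2 (adjusted p = 0.00502), and its other probe gave -1.34 and -0.47. The siRNA1 call of *Mgst1* and the siRNA2 call of *Gsta4* were kept under all 25 alternatives.

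The other 7 tested transferases were called with neither siRNA. Their siRNA1 changes ran from -0.41 to -0.05, and their siRNA2 changes from -0.49 to 0.30. *Gsto1*, the omega-class enzyme, had the largest of these, -0.41 and -0.49 (limma adjusted p = 0.227 and 0.23). It was dim, with mean signals of 15.4 in control, 14.5 with siRNA1, and 11.3 with siRNA2. Control replicate 1 read 154%, against 81.3% to 92.1% on the other control arrays. *Mgst3*, which acts on lipid hydroperoxides, came nearest to a call, at -0.29 with siRNA1 (adjusted p = 0.0631).

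**Figure D3:**
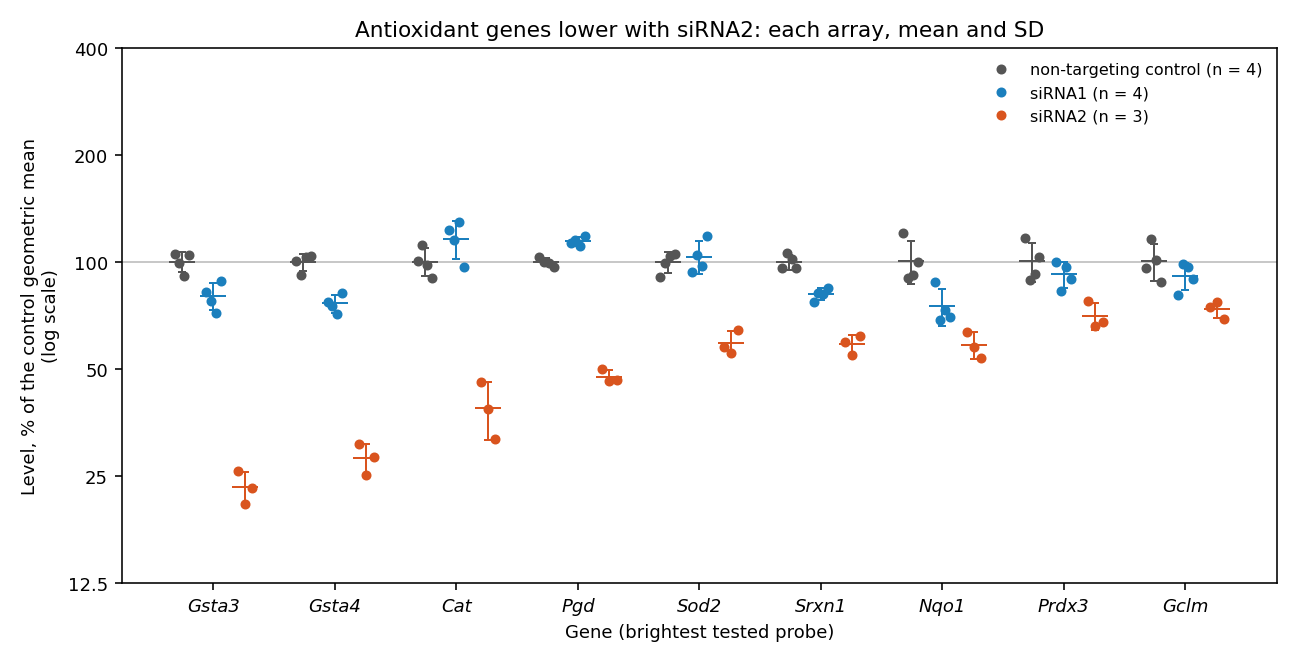
Level of 9 members called lower with siRNA2 on each array (vertical axis, percent of the control geometric mean, log scale). Points are arrays, and the horizontal mark and bar are the mean and SD of each group. The siRNA2 arrays of *Gsta3* lie at 20.9% to 25.8% and those of *Pgd* at 46.4% to 49.97%, below every control and siRNA1 array.

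Of the superoxide dismutases and catalase, 2 of 4 fell with siRNA2. *Cat*, which breaks down hydrogen peroxide in peroxisomes, measured 101%, 112%, 98.3%, and 90.1% in control, 123%, 115%, 129.5%, and 96.9% with siRNA1, and 46.0%, 38.7%, and 31.7% with siRNA2. The siRNA2 arrays were all below the rest, whereas the siRNA1 and control arrays overlapped. *Cat* fell by 1.38 ± 0.14 with siRNA2 (limma adjusted p = 7.54e-05), and its change with siRNA1 was 0.21 ± 0.13 (adjusted p = 0.27). *Sod2*, the manganese superoxide dismutase of mitochondria, measured 91.0%, 99.7%, 104%, and 106% in control, 93.8%, 105%, 97.7%, and 119% with siRNA1, and 57.9%, 55.6%, and 64.4% with siRNA2. Only siRNA2 stood apart, and *Sod2* fell by 0.76 ± 0.10 there (limma adjusted p = 0.000495) against a change of 0.05 ± 0.10 with siRNA1 (adjusted p = 0.755). *Sod1*, the cytosolic enzyme, was not called, at -0.25 and -0.11, nor was the secreted *Sod3*, at 0.21 and 0.07.

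*Pgd* was the member with opposite calls. It encodes phosphogluconate dehydrogenase, a step of the pentose phosphate pathway that yields NADPH. It measured 103%, 100.3%, 99.8%, and 96.8% in control, 113%, 116%, 111%, and 119% with siRNA1, and 49.97%, 46.4%, and 46.5% with siRNA2. The arrays of a group lay close together, and the 3 groups did not overlap. *Pgd* fell by 1.07 ± 0.07 with siRNA2 (limma adjusted p = 4.83e-06) and rose by 0.20 ± 0.07 with siRNA1 (adjusted p = 0.0494). The other *Pgd* probe gave -1.09 and 0.20 (adjusted p = 0.0587 with siRNA1). The siRNA1 call was lost in limma when any 1 of the 11 arrays was left out (adjusted p = 0.0516 to 0.116), and the change turned to -0.14 after normexp background correction. *G6pdx*, which encodes the enzyme of the step that opens the pathway, was called with neither siRNA, at -0.05 and -0.35 (limma adjusted p = 0.804 and 0.0791).

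In the thioredoxin system, *Srxn1* fell with both siRNAs, *Txnrd1* rose with siRNA1, and *Txnip* rose with siRNA2, of 6 genes tested. *Srxn1* encodes sulfiredoxin, which repairs overoxidized peroxiredoxins. It measured 96.1%, 106%, 102%, and 96.2% in control, 77.3%, 82.1%, 81.3%, and 84.8% with siRNA1, and 59.5%, 54.8%, and 62.0% with siRNA2, in 3 groups that did not overlap. It fell by 0.77 ± 0.08 with siRNA2 (limma adjusted p = 8.62e-05) and by 0.30 ± 0.07 with siRNA1 (adjusted p = 0.0122), a call lost with scaling by the median (0.115) and quantile normalization (0.0551). Its other 2 probes gave -0.97 and -0.98 with siRNA2, and -0.25 and -0.20 with siRNA1, the latter not called (limma adjusted p = 0.0749 and 0.137).

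*Txnip*, which binds and inhibits thioredoxin, measured 103%, 82.0%, 103%, and 115% in control, 124%, 94.1%, 113%, and 100.4% with siRNA1, and 181%, 139.9%, and 148% with siRNA2. It was the larger of the 2 increases with siRNA2, by 0.63 ± 0.14 (limma adjusted p = 0.00951), with within-slide values of 0.98, 0.44, and 0.37. Its change with siRNA1 was 0.10 ± 0.13 (adjusted p = 0.616). *Txnrd1*, the cytosolic thioredoxin reductase, rose by 0.27 ± 0.09 with siRNA1 (limma adjusted p = 0.0372), from 91.9% to 104% in control to 109.6% to 129%, without overlap. Its change with siRNA2 was -0.06 ± 0.09 (adjusted p = 0.759). The *Txnrd1* change with siRNA1 turned to -0.066 after normexp background correction, and its call was also lost in limma without any of the 4 control arrays, without siRNA1 replicate 2, 3 or 4, or without siRNA2 replicate 2 (adjusted p = 0.0502 to 0.107). *Txn1*, *Txn2*, and *Txnrd2* were called with neither siRNA, their changes running from -0.13 to 0.27.

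Among the 6 peroxiredoxins, *Prdx3* fell and *Prdx4* rose with siRNA2. With siRNA1 the lowest limma adjusted p among them was 0.108. *Prdx3*, the mitochondrial peroxiredoxin, measured 117%, 89.4%, 92.4%, and 103% in control, 100.4%, 83.1%, 96.7%, and 89.8% with siRNA1, and 77.7%, 66.0%, and 68.0% with siRNA2. Its siRNA2 arrays lay below all others, with a decrease of 0.51 ± 0.12 (limma adjusted p = 0.0106) that lost its call without siRNA2 replicate 2 (0.0528). *Prdx4*, the peroxiredoxin of the endoplasmic reticulum, measured 108%, 95.7%, 90.9%, and 106% in control, 114%, 121%, 107%, and 116% with siRNA1, and 123%, 116%, and 130.0% with siRNA2. It rose by 0.30 ± 0.09 with siRNA2 (limma adjusted p = 0.0428), a call lost without control replicate 2 or 3 or without any 1 of the 7 siRNA arrays (adjusted p = 0.0527 to 0.138). Its change with siRNA1 was 0.20 ± 0.08 (adjusted p = 0.108), and the siRNAs did not differ, at -0.10 ± 0.09 (0.476). *Prdx1*, *Prdx2*, *Prdx5*, and *Prdx6* lay between -0.17 and 0.06 for siRNA1 and between -0.12 and 0.09 for siRNA2.

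The quinone reductase *Nqo1* fell with both siRNAs, and heme oxygenase 1 rose with siRNA1. *Nqo1*, a classical Nrf2 target that reduces quinones without forming radicals, measured 121%, 90.2%, 91.8%, and 99.9% in control, 88.3%, 68.7%, 73.3%, and 70.1% with siRNA1, and 63.7%, 57.7%, and 53.8% with siRNA2. Its 3 groups did not overlap, although the highest siRNA1 array was close to the lowest control array. *Nqo1* fell by 0.78 ± 0.13 with siRNA2 (limma adjusted p = 0.00156) and by 0.42 ± 0.12 with siRNA1 (adjusted p = 0.0215). The siRNA1 call was lost in limma without control replicate 1 or without siRNA1 replicate 2, 3 or 4 (adjusted p = 0.0543 to 0.0553), with scaling by the median (0.0632), and with the adjusted test of the study's methods (0.0635).

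*Hmox1*, the inducible enzyme that breaks down heme, measured 101%, 88.3%, 103%, and 109% in control, 140.2%, 152%, 149%, and 155% with siRNA1, and 87.4%, 69.5%, and 92.0% with siRNA2. The siRNA1 arrays were above all others, and siRNA2 overlapped control. *Hmox1* rose by 0.57 ± 0.10 with siRNA1 (limma adjusted p = 0.00202), and its change with siRNA2 was -0.28 ± 0.11 (adjusted p = 0.113). *Hmox2*, the constitutive enzyme, was called with neither, at -0.02 and -0.05.

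*Gsr* was the largest increase of the list. It encodes glutathione reductase, which returns oxidized glutathione to its reduced form at the cost of NADPH. It measured 107%, 110.3%, 95.3%, and 88.7% in control, 268%, 219%, 269%, and 249% with siRNA1, and 109%, 94.0%, and 92.4% with siRNA2. All siRNA1 arrays stood at more than 200% of the control mean, and siRNA2 overlapped control. *Gsr* rose by 1.32 ± 0.10 with siRNA1 (limma adjusted p = 9.49e-06), and its other 2 probes gave 1.09 and 1.35. Its change with siRNA2 was -0.03 ± 0.11 (adjusted p = 0.923, 95% interval -0.27 to 0.22). Within slides the siRNA1 change was 1.30, 1.35, and 1.49.

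The genes of glutathione synthesis and cystine import moved less. *Gclm*, the modifier subunit of glutamate-cysteine ligase, measured 96.4%, 116%, 101%, and 88.2% in control, 80.8%, 98.9%, 96.9%, and 89.8% with siRNA1, and 74.7%, 77.2%, and 69.4% with siRNA2. It fell by 0.44 ± 0.11 with siRNA2 (limma adjusted p = 0.0171), a call lost without siRNA2 replicate 3 (0.0645), and its change with siRNA1 was -0.13 ± 0.10 (adjusted p = 0.382). *Gclc*, the catalytic subunit, was called with neither siRNA, at 0.27 ± 0.09 and -0.19 ± 0.10 (limma adjusted p = 0.0536 and 0.241), although its siRNA1 arrays, at 115% to 128%, lay above the control arrays, at 93.1% to 109%. With slide as a block *Gclc* was called with siRNA1, at 0.29 (limma adjusted p = 0.0241). *Slc7a11*, which imports cystine in exchange for glutamate, was not called with siRNA2 by its brightest probe, at -0.45 ± 0.16 (limma adjusted p = 0.0757), but was called by another of its 3 probes, at -0.41 (adjusted p = 0.0263). The brightest probe read 92.5% to 115% in control, 86.4% to 126% with siRNA1, and 62.8% to 92.2% with siRNA2. Its siRNA1 change was 0.11 ± 0.15 (adjusted p = 0.634), and the other probes gave 0.24 and -0.08. Between the siRNAs it differed by 0.56 ± 0.16 (0.0258). *Gss*, which completes glutathione, was not called, at 0.07 and -0.19.

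The 3 tested glutathione peroxidases were called with neither siRNA. *Gpx1*, the abundant cytosolic enzyme, changed by -0.16 with siRNA1 and 0.08 with siRNA2, and *Gpx4*, which reduces lipid hydroperoxides in membranes, by -0.18 and -0.05. *Gpx7*, of the endoplasmic reticulum, read 0.28 and 0.17, and the lowest adjusted p of the 3 by limma was 0.102 with siRNA1 and 0.447 with siRNA2. Of the metallothioneins, small proteins that bind zinc and copper, *Mt1* rose with siRNA1 and *Mt2* was not called. *Mt1* measured 101%, 77.5%, 105%, and 122% in control, 132%, 135%, 142%, and 184% with siRNA1, and 96.1%, 78.8%, and 123% with siRNA2. The siRNA1 arrays lay above control, and siRNA2 overlapped control. *Mt1* rose by 0.55 ± 0.17 (limma adjusted p = 0.0359), a call lost without control replicate 1, 2 or 3 or siRNA1 replicate 3 or 4 (adjusted p = 0.0609 to 0.0916), and its change with siRNA2 was -0.03 ± 0.19 (adjusted p = 0.943).

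**Figure D4:**
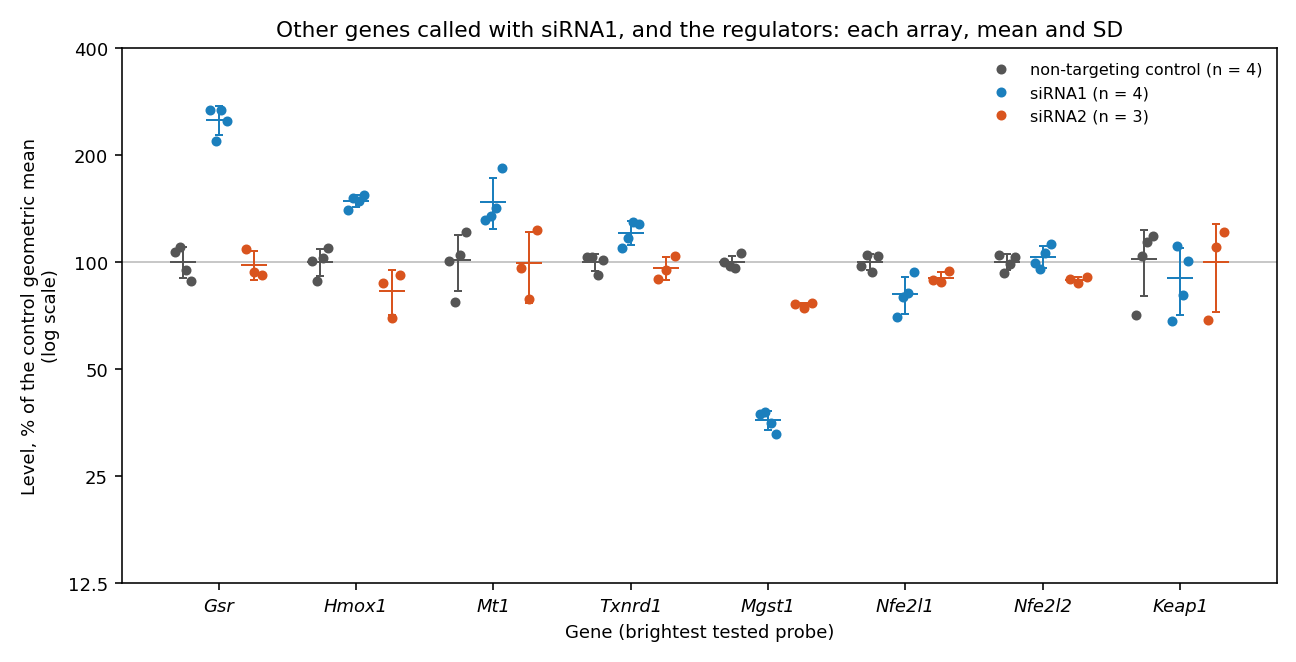
Level of further members called with siRNA1 and of the 3 regulators on each array (vertical axis, percent of the control geometric mean, log scale). Points are arrays, and the horizontal mark and bar are the mean and SD of each group. The siRNA1 arrays of *Gsr* lie at 219% to 269% and those of *Mgst1* at 33.0% to 37.9%.

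Both comparisons with control use the same 4 control arrays. With that shared, *Gsta3*, *Gsta4*, *Mgst1*, *Nqo1*, and *Srxn1* were called lower with both siRNAs (11.4% of members; 5.21% of all tested genes), of which *Mgst1* alone was called with both when arrays were scaled by their median, and *Pgd* was called in opposite directions (2.27% of members; 1.31% of all).

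The siRNAs were compared directly. Of the 44 members, 15 differed (34.1% against 26.3% of all tested genes), of which 13 were higher with siRNA1 (29.5% against 11.8%) and 2 were lower (4.55% against 14.4%). The arrays did not overlap for 15 members higher with siRNA1 (34.1% against 15.3%) and 3 lower (6.82% against 19.8%). The median difference over the members was 0.13, against -0.07 over all tested genes. Of the 73 other redox genes, 12 were higher with siRNA1 (16.4%) and 10 lower (13.7%), with a median difference of -0.003. Some probes differed in call from the brightest. A *Gstp1* probe was called lower, at -0.43, and a *Prdx6* probe higher, at 0.35 (limma adjusted p = 0.0123 and 0.0343). Another *Slc7a11* probe was not called, at 0.34 (0.0518). At a fold of at least 2, 6 members differed (13.6% against 3.53%), namely *Cat*, *Gsr*, *Gsta3*, *Gsta4*, and *Pgd* as higher with siRNA1 (11.4% against 1.84%) and *Mgst1* as lower (2.27% against 1.69%). The transferases *Gsta3* and *Gsta4* differed by 1.78 ± 0.10 and 1.45 ± 0.09 (limma adjusted p = 1.6e-06 and 2.7e-06), and *Mgst1* by -1.08 ± 0.08 (6.28e-06). *Cat* differed by 1.59 ± 0.14 (2.14e-05). *Gsr* and *Pgd*, the reductase and an NADPH source, differed by 1.35 ± 0.11 and 1.27 ± 0.07 (1.39e-05 and 1.4e-06). Against control, *Gsr* was called with siRNA1 alone, and *Cat* with siRNA2 alone.

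The smaller differences included *Hmox1* at 0.85 ± 0.11 (limma adjusted p = 0.000282), *Sod2* at 0.80 ± 0.10 (0.000246), *Srxn1* at 0.47 ± 0.08 (0.00151), and *Gclc* at 0.46 ± 0.10 (0.00691). *Gclc* was thus higher with siRNA1 than with siRNA2, although it was called against control with neither. The calls of *Slc7a11*, *Txnrd1*, *Mt1*, *Prdx3*, and *Txnip* in this comparison (adjusted p = 0.0185 to 0.0431) were each lost in limma without at least 1 array. These were siRNA1 replicates 1 and 3 and siRNA2 replicates 2 and 3 for *Slc7a11* and *Prdx3* (0.0626 to 0.115), siRNA1 replicates 3 and 4 and siRNA2 replicates 1 and 2 for *Txnrd1* (0.0593 to 0.0839), and siRNA2 replicate 1 for *Txnip* (0.0702). For *Mt1* they were control replicates 1 and 3, all siRNA1 replicates, and siRNA2 replicates 1 and 2 (0.0527 to 0.174). The difference was not called for *Nfe2l2*, at 0.21 ± 0.08 (limma adjusted p = 0.0948), nor for *Nqo1*, at 0.36 ± 0.13 (0.0643), but with slide as a block both were called, at 0.22 and 0.38 (0.0489 and 0.0269).

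The large changes had the same sign on each of the 3 slides. With siRNA2, the within-slide changes were -1.65, -2.04, and -1.88 for *Gsta4*, -1.21, -1.34, and -1.50 for *Cat*, and -1.03, -1.10, and -1.06 for *Pgd*. With siRNA1, those of *Mgst1* were -1.40, -1.39, and -1.69, and those of *Hmox1* were 0.57, 0.55, and 0.50. With slide as a block, siRNA2 changed *Gsta3* by -2.09 and *Cat* by -1.34, and siRNA1 changed *Gsr* by 1.37.

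**Figure D5:**
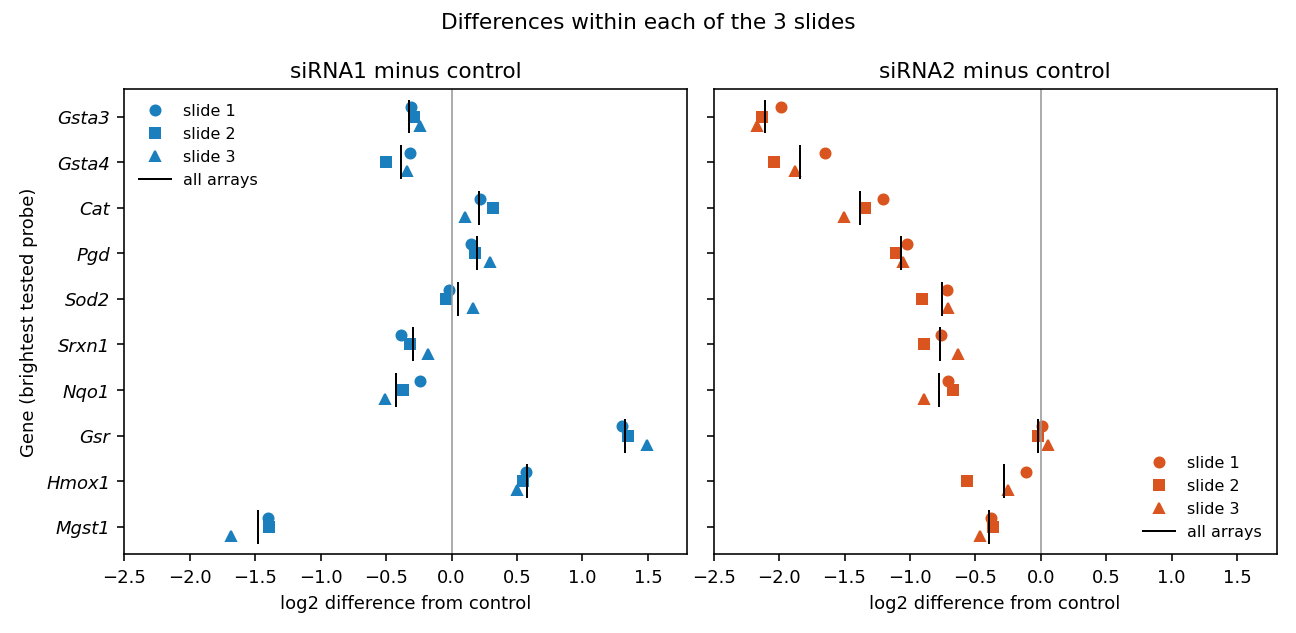
Log2 difference from control (horizontal axis) of 10 members (vertical axis) within each slide, for siRNA1 (left) and siRNA2 (right). Symbols are slides, and the vertical line is the estimate over all arrays. The siRNA2 changes of *Gsta3* on the 3 slides run from -2.17 to -1.99, and the siRNA1 changes of *Gsr* from 1.30 to 1.49.

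A further 83 redox genes of the same pathways were listed, of which 73 were tested. With siRNA1, 6 rose (8.22%) and 20 fell (27.4%; 9 and 17 with quantile normalization), and with siRNA2, 3 rose (4.11%) and 20 fell (27.4%), against the shares of all genes given above. With both, 12 fell (16.4%; 5.21% of all tested genes) and *Cul3* and *Sesn1* rose (2.74%; 3.85% of all). *Cul3*, the scaffold of the ubiquitin ligase that *Keap1* serves, rose, with changes of 0.73 for siRNA1 and 0.67 for siRNA2 (limma adjusted p = 0.00012 and 0.000519). *Nfe2*, a relative of *Nfe2l2*, fell, with changes of -0.75 and -1.04 (adjusted p = 0.00226 and 0.00069). *Slc1a5*, a carrier of glutamine, fell, with changes of -0.85 and -0.69 (3.25e-05 and 0.000315), and *Txnrd3*, a thioredoxin reductase enriched in testis, fell too, with -0.96 and -0.43 (1.54e-05 and 0.00646).

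The transferase *Gstm6* fell, with changes of -0.70 for siRNA1 and -0.57 for siRNA2 (limma adjusted p = 0.000184 and 0.00172), and *Txnl1*, a thioredoxin-like protein of the proteasome, fell too, with -0.40 for each (0.00361 and 0.0081). *Aox1*, aldehyde oxidase, fell, with -0.32 and -0.67 (0.00894 and 0.000237), and *Ephx1*, the microsomal epoxide hydrolase, with -0.43 and -0.38 (0.00244 and 0.0104). *Gsta1* and *Gsta2*, alpha-class relatives of *Gsta3*, fell with both siRNAs, *Gsta1* with -0.44 and -0.42 (0.00417 and 0.0114) and *Gsta2* with -0.37 and -0.51 (0.0144 and 0.00553). These 2 were chosen after their values were seen.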

How the data were processed

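RNA of MLTCs was measured on 11 Agilent 1-colour arrays (4 control, 4 siRNA1, 3 siRNA2). Per the file headers, Feature Extraction 9.5.1.1 made the signal intensity of each spot, with background and spatial trends subtracted and no normalization between arrays. The authors' group averages for selected probes were not used here. For the present analysis, spots marked as outliers and control spots were left out, log2 of the intensity minus the 75th percentile of each array was taken, and spots of a probe were averaged. Probes that read well above background on each array of some group (24250) were fitted with limma 3.58.1 (R 4.3.3; lmFit, contrasts.fit, eBayes) over all 11 arrays, with Benjamini-Hochberg adjustment over all tested probes. Where a gene has several tested probes, the brightest stands for it. Symbols came from RefSeq accessions (24375 probes), and the array's older annotation gives no coordinates here. The number of arrays limits the precision, and 58.6% to 62.6% of spots were well above background, with 0 saturated.

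The members and lists were chosen with earlier results of these data known. Members called against control by their brightest probe and the 3 regulators were given with levels and changes. *Gclc* and *Slc7a11* were added, and of the other redox genes up to 8 called with both siRNAs, by the larger adjusted p. The fit was tested on simulated data with independent noise for each array, no slide effect, and the same changes in both siRNA groups. That test does not cover arrays of a slide that deviate together. Alternatives were normexp background correction (offset 50, on the median spot signal because no mean is given), normalization by quantiles, median scaling, the dim-probe filter dropped or widened to all arrays, outlier spots retained, a block for slide or for replicate number, fits of 2 groups at a time, the unpaired test of the study's methods (adjusted and unadjusted), eBayes with robust and trend options, probe means, a fold of at least 2, and leaving out each array in turn.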

Additional observations from a re-analysis of the deposited data

Results flagged for a closer look

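*Mamld1*, the targeted gene, measured 77.0% of the control mean on siRNA1 replicate 2, against 44.1% to 48.1% on the other 3 siRNA1 arrays. This gap took 0.847 of the range of the group, above Dixon's 95% critical value for 4 samples. It was the only such array among the 44 groups of 4 tested, and chance marks about 1 in 20. *Pgd* was called in opposite directions with the siRNAs, and the test of the difference itself gave 1.27 on the log2 scale (limma adjusted p = 1.4e-06).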

How the results depend on the processing

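The counts of members called (11 with siRNA1, 12 with siRNA2, 15 between the siRNAs) and of other redox genes called (26 and 23) became 1, 2, 1, 3, and 1 after normexp background correction, which moved the median change of all probes to 0.22, 0.17, and 0.11 from -0.05, -0.01, and -0.04 in the 3 comparisons. With a fold of at least 2 they became 2, 4, 6, 2, and 2. The siRNA1 count of members was 4 with scaling by the median and 7 without a filter on dim probes. Leaving out each array in turn gave 5 to 11, 10 to 12, 11 to 16, 22 to 27, and 15 to 23. Of the members' counts, the siRNA1 count moved by over 1.5 times, to 5 without control replicate 1 or siRNA1 replicate 3, to 6 without siRNA1 replicate 2, and to 7 without control replicate 4 or siRNA1 replicate 4. The other redox genes with siRNA2 fell to 15 without siRNA2 replicate 2. The cause was not tested. The remaining alternatives kept these counts within 1.5 times. Shares of all tested genes called under each alternative are not given beside these counts.

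*Mamld1* turned to 0.65 with siRNA1, 0.44 with siRNA2, and 0.21 between the siRNAs after normexp. Its change with siRNA2 lost its call at -0.77 without a filter and with the adjusted test of the methods, at -0.21 with extreme backgrounds replaced, and in 4 of the fits that left out an array, whose range was -0.88 to -0.58. With siRNA1 that range was -1.11 to -0.84, and between the siRNAs -0.35 to -0.05.

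Normexp also turned changes with siRNA1 to -0.24 (*Nfe2l2*), -0.13 (*Cat*), -0.14 (*Pgd*), -0.18 (*Prdx4*), -0.29 (*Sod2*), -0.10 (*Txnip*), -0.066 (*Txnrd1*), -0.14 (*Slc7a11*), and -0.085 (*Gclc*). Of these, *Pgd* and *Txnrd1* were called. Other sign changes touched changes that were not called. With siRNA2, leaving out arrays gave *Keap1* -0.20 to 0.22 (above 0 without control replicate 3, control replicate 4 or siRNA2 replicate 1), *Gsr* -0.10 to 0.022 (above 0 without control replicate 1 or 2 or siRNA2 replicate 2 or 3), and *Mt1* -0.20 to 0.12 (above 0 without control replicate 4 or siRNA2 replicate 2). *Sod2* with siRNA1 ran from -0.018, without siRNA1 replicate 4, to 0.094, and *Keap1* between the siRNAs from -0.39 to 0.023, without siRNA2 replicate 3. With siRNA2, quantile normalization turned *Mt1* to 0.0069 and *Txnrd1* to 0.0058, and slide as a block turned *Gsr* to 0.0088.

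Replicate numbers are shared across groups, but the labels do not say that a number marks a shared culture. The deviations of same-numbered arrays of different groups correlated at -0.18 to 0.53 (median 0.30, 10 pairs). Among arrays of other groups, 9 of 11 arrays correlated best with one of their own number. The main fit took no pairs because the labels name none. Whether these correlations reflect shared cultures or shared slides was not tested. With the replicate number as a block, 13 members were called with siRNA1 and 13 with siRNA2, again without a share of all genes. Under this block *Keap1* turned to 0.036 and *Mt1* to 0.069 with siRNA2. Arrays on the same slide deviated together more than others (median correlation 0.30 against -0.12).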

Other observations

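Several other redox genes, chosen after their values were seen, separated the siRNAs. *Cbr3*, a carbonyl reductase, measured 92.3% to 108% in control, 77.7% to 97.4% with siRNA1, and 22.9% to 24.3% with siRNA2, and fell by 2.10 with siRNA2 (limma adjusted p = 4.95e-07) against a change of -0.20 with siRNA1 (0.126). *Maff* and *Mafg*, small Maf partners of Nrf2, fell with siRNA2, with changes of -0.53 and -0.52 (0.00917 and 0.0169). Their changes with siRNA1 were 0.13 and -0.03 (0.403 and 0.894). *Mafk*, another small Maf, was called with neither siRNA, at 96.0% to 106% in control and 92.3% to 99.8% with siRNA2. *Cth* and *Cbs*, which make cysteine from homocysteine, were lower with siRNA2, at -0.40 and -0.34 (0.0165 and 0.04), and read 0.17 and 0.23 with siRNA1 (0.198 and 0.0925).

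*Blvra*, which reduces the biliverdin that heme oxygenases release, fell by 0.92 with siRNA1 (limma adjusted p = 1.83e-05), with a change of -0.12 with siRNA2 (0.431). *Abcc3*, an exporter of conjugates, fell by 0.90 with siRNA1 (4.22e-05) and read -0.01 with siRNA2 (0.964). The transferase *Gstt3* fell by 0.82 with siRNA1 (6.61e-05) and read -0.09 with siRNA2 (0.597). The differences between the siRNAs were 1.89 for *Cbr3*, 0.66 for *Maff*, 0.49 for *Mafg*, 0.56 for *Cth*, and 0.57 for *Cbs*, and -0.80 for *Blvra*, -0.89 for *Abcc3*, and -0.73 for *Gstt3*, each with an adjusted p from limma of 0.0179 at most. Of the 73 other redox genes, 12 were called higher with siRNA1 than with siRNA2 and 10 lower. The lower ones included *Abcc1* and *Osgin1*, called against control with neither siRNA. *Abcc1* measured 94.6% to 104% in control and 105% to 124% with siRNA2, and *Osgin1* 83.1% to 127% and 125% to 195%.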
